A study of Mus musculus with 12 samples.

Results

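The Wnt ligands, their Frizzled receptors and the secreted Wnt inhibitors of the Sfrp and Dkk families were followed in mouse embryonic stem cells (ESCs) before and after differentiation in culture. Members were taken by gene symbol alone, as every gene named Wnt, Fzd, Sfrp or Dkk with a number, with no measured value used. The rule found 37 of the 23336 genes in the count table: 19 ligands, 10 receptors, 4 Sfrp genes and 4 Dkk genes. Of these, 32 had at least 10 counts in total over the 12 libraries. The other 5 were Dkk4, Wnt8b and Wnt9b, with 1 or more counts, and Wnt1 and Wnt3a, which held 0 counts in every library. There were 6 groups of 2 libraries. WT female cells (the line Pgk12.1), female cells with the genotype label RlimKO and WT male cells (the line E14) were each sequenced undifferentiated, in medium with LIF, and differentiated. LIF is the cytokine that holds mouse ESCs in the stem cell state. Differentiated cells had spent 3 days as embryoid bodies without LIF and 6 further days in culture at 7.5% oxygen. All 12 libraries carry the strain label C57BL/6. How the RlimKO line was made, and whether it is 1 clone, is not given in the sources used, so its genotype is used here only as a label.

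Wnt proteins are secreted, lipid-modified growth factors. They bind Frizzled receptors, membrane proteins that work with the co-receptors Lrp5 and Lrp6 to stabilise beta-catenin, or with Ror and Ryk receptors in branches that do not need beta-catenin. Sfrp proteins carry a Frizzled-like domain and bind Wnts outside the cell, while Dkk1, Dkk2 and Dkk4 act on Lrp5 and Lrp6 (Dkk3 is a divergent member). In mouse ESCs, beta-catenin activity helps to keep the naive state, and Wnt signals later pattern the primitive streak, mesoderm and heart.

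Libraries held 2011919 to 5401940 counts in genes, of which the ribosomal precursor gene Rn45s took 6.36% to 67.7%. Levels are given as counts per 1e6 counts of scaled library size (CPM). A gene is said to rise, fall or differ where edgeR's quasi-likelihood test gave an adjusted p below 0.05 over all 12814 genes tested. Undifferentiated RlimKO-labelled libraries held 160 and 150 CPM of Rlim against 267 and 282 CPM in WT females, but after differentiation they held 290.1 and 299 CPM against 258 and 266 CPM. A count per gene does not show whether reads lie in the deleted part of Rlim, so these levels do not check the label. All 8 pluripotency markers followed fell on differentiation in each line. The differentiated WT male libraries stood apart from each other. The chi-square per degree of freedom between them was 24.8, against 1.85 to 2.32 in the other groups. Replicate 2 of that pair has a sample number in the labels away from the run of the others. Whether the replicates are separate cultures is not stated, and p-values therefore measure only the spread between these libraries, which may be technical. In bulk samples like these, fewer cells of a type and less RNA per cell cannot be told apart.

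On differentiation more members rose than fell in every line, among them ligands that were nearly undetected in stem cells, Frizzled receptors and Dkk inhibitors. In WT females 14 members rose and 3 fell, where 26.5% of all genes tested rose and 22.2% fell (48.7% in either direction). In RlimKO-labelled females 13 rose and 6 fell, against 26.4% and 21.6% of all genes (48% in either direction). In WT males 16 rose and 4 fell, against 28.7% and 25.4% (54% in either direction). These counts are over the 26 members that passed the expression filter, which were 9 ligands, 10 receptors and 7 inhibitors. A gene near 0 before differentiation could pass that filter only by being higher afterwards. The median log2 change of the members tested was 1.66 in WT females, 2.63 in RlimKO-labelled females and 2.43 in WT males, where the medians of all genes were 0.09, 0.1 and 0.05. With genes at 0 in a group set at their bound, the members' medians were 1.57, 1.25 and 2.43. Rises in all 3 lines were seen for Wnt2, Wnt4, Wnt5a, Wnt11, Fzd1, Fzd2, Fzd4, Fzd7, Dkk1, Dkk2 and Dkk3, and falls in all 3 for Fzd5, Fzd10 and Sfrp4. The 3 changes compare different libraries, and no test joined them. All 12 libraries were fitted in 1 model with a shared estimate of spread, so the 3 tests were not fully independent. Markers of other cell types moved with the state of the cells. The 8 fibroblast markers summed to 5.25 to 60.5 CPM in undifferentiated and 2997 to 11654 CPM in differentiated libraries, with none at 0 in any differentiated group. By gene, 7 of the 8 rose in WT females, 6 in RlimKO-labelled females and 7 in WT males. Thy1 fell in WT males, from 4.09 and 4.41 CPM to 0 and 0.537 CPM, and was not called higher in either female line. The 10 visceral endoderm markers summed to 9.29 to 12.1 and 238 to 787 CPM, also with none at 0 in a differentiated group. The part of these cell types in the changes of the Wnt genes was not tested.

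**Figure D1:**
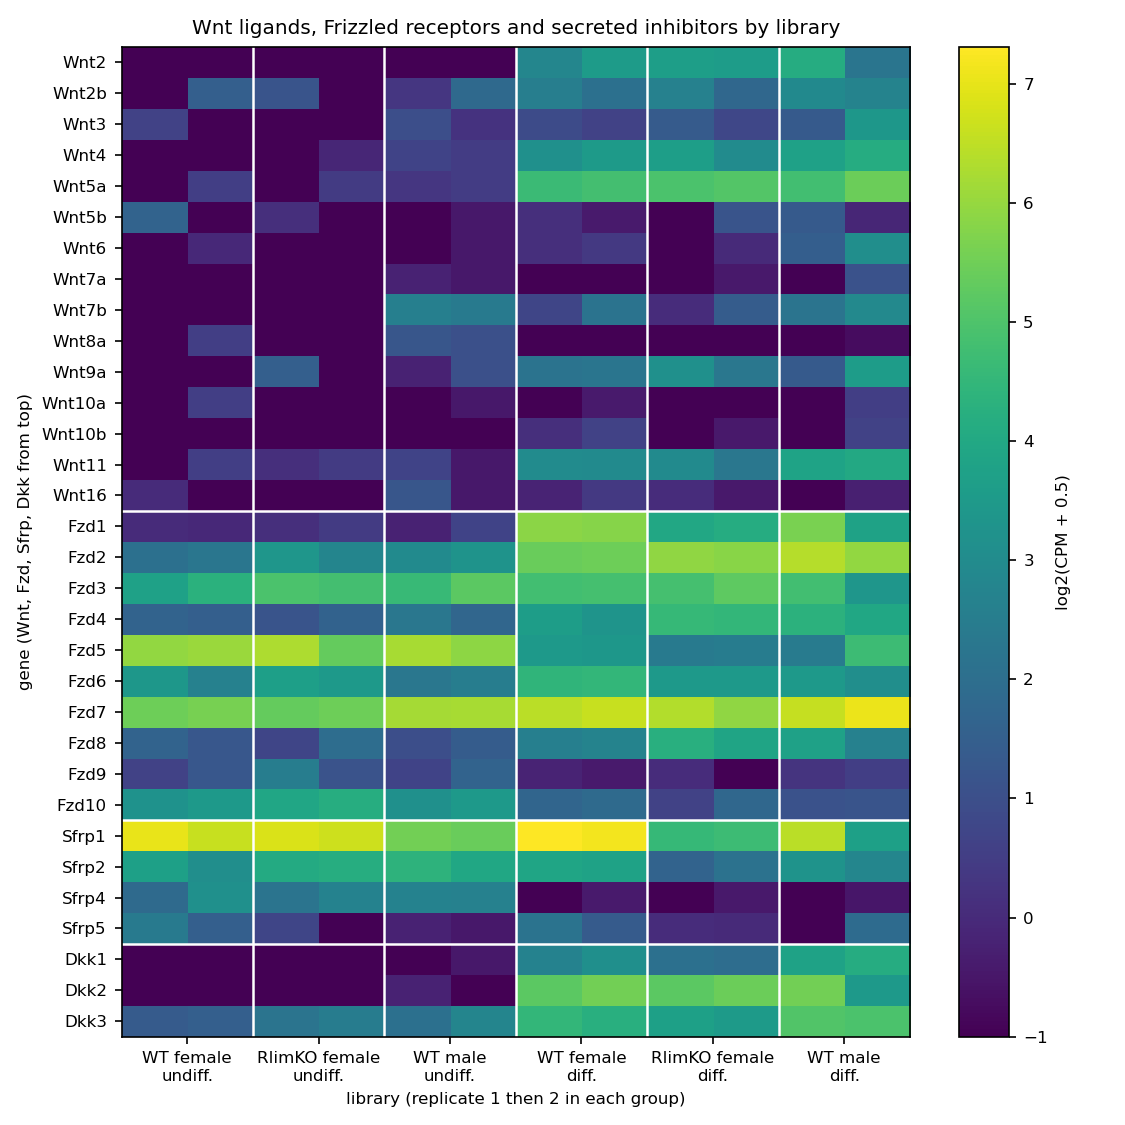
Level of the 32 members with at least 10 counts in each of the 12 libraries, as log2(CPM + 0.5) in colour, with genes in rows by family and libraries in columns by group (undiff., undifferentiated; diff., differentiated; 2 libraries a group). The rows of Wnt2, Wnt4, Wnt5a, Wnt11, Dkk1 and Dkk2 are dark in the 6 undifferentiated libraries and brighter in the 6 differentiated ones, whereas Fzd5, Fzd10 and Sfrp4 go the other way.

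Ligands were scarce in stem cells. Summed over the 19 genes, ligand counts came to 4.2 to 6.67 CPM per library in undifferentiated WT females, 2.13 to 5.25 in RlimKO-labelled females and 14.8 to 16 in WT males. After differentiation the sums were 61.6 to 73.7, 70.7 to 80.2 and 91.1 to 128 CPM. Every differentiated library thus lay above every undifferentiated library. Of the 9 ligands tested, 6 rose in WT females, 5 in RlimKO-labelled females and 7 in WT males, where 26.5%, 26.4% and 28.7% of all genes rose. None of the 9 fell by the test in any line. Ligands near 0 in stem cells had little room to fall and could pass the expression filter only through differentiated libraries.

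Wnt5a, the main ligand of the branch that does not need beta-catenin and a driver of cell movement, was near 0 in stem cells. Undifferentiated WT females held 0 and 0.953 CPM of it, RlimKO-labelled females 0 and 0.852, and WT males 0.743 and 0.882. Differentiated libraries held 24.9 and 27.6 CPM, 30.8 and 33.6 CPM, and 27.1 and 43.4 CPM in the same order. The 6 undifferentiated libraries were all below 1 CPM and the 6 differentiated ones formed a narrow, separate set. Over 2 counts in each undifferentiated female group, the ratios were 52.1 (95% counting interval 14.2 to 432) in WT females and 66.5 (18.2 to 553) in RlimKO-labelled females, with adjusted p = 3.67e-06 and 1.98e-06. In WT males Wnt5a rose by 5.37 ± 0.48 on the log2 scale (± is the standard error, adjusted p = 3.87e-07).

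Wnt2, a ligand known from early cardiac mesoderm, placenta and vessels, had 0 counts in all 6 undifferentiated libraries. It reached 6.51 and 11.4 CPM in differentiated WT females, 12.2 and 11.5 in RlimKO-labelled females, and 17 and 4.19 in WT males. Wnt2 was thus present in each differentiated library, with the widest gap in the male pair. Against a floor of 3 counts over the undifferentiated group, it was at least 11.5-fold higher in WT females, 15.8-fold in RlimKO-labelled females and 19.9-fold in WT males (adjusted p = 0.00208, 0.00122 and 0.000384).

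Wnt4, a ligand of kidney, gonad and muscle development, was at 0 in both undifferentiated WT female libraries, at 0 and 0.426 CPM in RlimKO-labelled females and at 1.11 and 0.882 CPM in WT males. Differentiation brought it to 8.48 and 11.1 CPM, 12.2 and 7.56 CPM, and 13.1 and 17 CPM. The rise was at least 12.8-fold in WT females, had a ratio of 36.6 (6.3 to 1473) in RlimKO-labelled females, and was 3.91 ± 0.51 on the log2 scale in WT males (adjusted p = 4.61e-05, 0.000136 and 2.36e-05). Wnt4 libraries of the 2 states did not overlap in any line.

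Wnt11, which like Wnt5a acts largely without beta-catenin and is known from heart and gastrulation movements, followed the same course. Its levels were 0 and 0.953 CPM, 0.584 and 0.852 CPM, and 1.11 and 0.22 CPM before differentiation in WT females, RlimKO-labelled females and WT males. After it they were 7.5 and 7.42 CPM, 7.44 and 4.39 CPM, and 13.5 and 15.7 CPM. All differentiated libraries were above all undifferentiated ones, and both male ones were the highest. The ratio was 14.9 (3.97 to 126) in WT females and 7.24 (2.26 to 36.9) in RlimKO-labelled females, and the log2 change in WT males was 4.61 ± 0.63 (adjusted p = 0.00102, 0.00645 and 2.6e-05). Without either undifferentiated RlimKO-labelled library the RlimKO-labelled rise was not called (adjusted p up to 0.053).

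The 250 bases upstream of the start of Wnt11 are shown because this ligand rose in every line. Of its 2 RefSeq windows, only the one shown holds a match to the core word of TCF/LEF factors, the partners of beta-catenin on DNA. Sequences are from RefSeq on GRCm38.p6, read 5′ to 3′ on the gene's strand. Capitals mark 2 words searched on both strands, which do not overlap each other in any window shown. The first is the TCF/LEF core, spelled CTTTGA. The other is a short form of the TATA box, which many strongly regulated promoters carry, and it is spelled TATAAA. The Wnt11 window shown is chr7:98834862-98835111 on the plus strand, and the other Wnt11 window held neither word. The gene itself spans chr7:98835112-98855195.
Wnt11: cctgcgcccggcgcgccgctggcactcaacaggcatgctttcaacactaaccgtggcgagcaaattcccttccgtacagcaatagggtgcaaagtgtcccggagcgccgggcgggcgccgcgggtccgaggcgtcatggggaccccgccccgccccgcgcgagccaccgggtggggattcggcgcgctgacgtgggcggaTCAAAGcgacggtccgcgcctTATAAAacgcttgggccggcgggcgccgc
The core word read on the opposite strand began 50 bases before the start, and the TATA box word began 29 bases before it. RefSeq windows were found for 25 of the 37 members (28 windows). The TCF/LEF core was in 4 of these 28 windows (14.3%), of Dkk1, Fzd1, Wnt11 and Wnt5b, and in 13.8% of all 32851 windows of this length. The TATA box word was also in 4 (14.3%), of Dkk1, Dkk2, Fzd1 and Wnt11, and in 12.4% of all windows. A match describes the letters of the window only.

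Of the other 5 ligands tested, Wnt7b, Wnt9a, Wnt3 and Wnt6 passed the test in 1 or 2 of the 3 lines and Wnt2b in none. No ligand was called for a difference between lines in the change itself. Wnt7b, a ligand of lung, brain and vessel development, was at 0 in all 4 undifferentiated female libraries but at 5.57 and 4.85 CPM in undifferentiated WT males. Differentiated levels were 1.18 and 3.97 CPM for WT females, 0.531 and 2.19 CPM for RlimKO-labelled females and 4.13 and 7.09 CPM in WT males. Wnt7b was thus at least 3.17-fold higher after differentiation in WT females (adjusted p = 0.0153) and at least 2.26-fold higher in RlimKO-labelled females (adjusted p = 0.041), while in WT males the log2 change was 0.14 (adjusted p = 0.862). The WT female call was lost without any of 3 libraries (either undifferentiated WT female, or differentiated WT female replicate 2; adjusted p up to 0.0845). The RlimKO-labelled call was lost with DESeq2 and without any of 5 libraries (both undifferentiated RlimKO-labelled, both undifferentiated WT male, or differentiated RlimKO-labelled replicate 2; adjusted p up to 0.301).

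Wnt9a, known from joint and blood stem cell development, stood at 0 in both undifferentiated WT female libraries and at 3.95 and 4.24 CPM in the differentiated ones, at least 5.43-fold higher (adjusted p = 0.0185). In WT males it went from 0.371 and 1.54 CPM to 2.07 and 11.5 CPM, a log2 change of 2.7 ± 0.92 (adjusted p = 0.0233). RlimKO-labelled females held 2.34 and 0 CPM before and 8.5 and 4.39 CPM after, a log2 change of 2.56 that was not called (adjusted p = 0.0733). Both calls depended on single libraries. The WT female call was lost without either undifferentiated WT female library (adjusted p up to 0.102). The male call was lost without either undifferentiated WT male library or differentiated WT male replicate 2 (adjusted p up to 0.351), when only the male groups were fitted, and without the libraries of highest and lowest Rn45s share (adjusted p = 0.395).

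Wnt3 and Wnt6 passed the test in WT males and in neither female line. Wnt3, a ligand needed for the primitive streak, stood at 1.49 and 0.661 CPM in undifferentiated WT males and at 2.07 and 10.1 CPM in differentiated ones, a log2 change of 2.62 ± 0.86 (adjusted p = 0.0198). Within the differentiated pair, replicate 2 was the high one. The Wnt3 call was lost without that library or either undifferentiated WT male library (adjusted p up to 0.321), with DESeq2 (adjusted p = 0.0634) and when only the male groups were fitted. In females Wnt3 ranged from 0 to 1.05 CPM before and from 1.06 to 2.13 CPM after differentiation. Wnt6, a ligand of surface epithelium and extraembryonic endoderm, went from 0 and 0.22 CPM to 2.3 and 8.06 CPM in WT males, a ratio of 45 (7.86 to 1797, adjusted p = 0.00203). In females it stayed at 0 to 0.795 CPM. Wnt2b, the other ligand tested, was at 0 to 3.09 CPM before and 2.93 to 7.12 CPM after differentiation and was not called in any line (adjusted p = 0.124, 0.089 and 0.0805 in WT females, RlimKO-labelled females and WT males). The 6 described ligands that did not pass the expression filter were Wnt5b, Wnt7a, Wnt8a, Wnt10a, Wnt10b and Wnt16. None exceeded 2.63 CPM in a library. Wnt8a, a ligand of the primitive streak, was at 1.86 and 1.54 CPM in undifferentiated WT males, at 0.953 CPM in 1 undifferentiated WT female library and at 0.107 CPM or less in all others.

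Receptors were present in both states, and some Frizzled genes rose while others fell. Summed over 10 genes, Frizzled counts came to 149 to 161 CPM, 155 to 193 CPM and 198 to 204 CPM in undifferentiated WT females, RlimKO-labelled females and WT males, and to 268 to 277, 226 to 246 and 276 to 305 CPM after differentiation. In WT females 5 receptors rose and 2 fell, in RlimKO-labelled females 5 rose and 3 fell, and in WT males 6 rose and 2 fell. Of all genes tested, 48.7%, 48% and 54% were called in either direction in these lines. Fzd1, Fzd2, Fzd4 and Fzd7 rose in every line, and Fzd5 and Fzd10 fell in every line.

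Fzd1, a receptor of the beta-catenin branch, was close to silent in stem cells. Its levels were 0.525 and 0.477 CPM in undifferentiated WT females, 0.584 and 0.852 CPM in RlimKO-labelled females and 0.371 and 1.1 CPM in WT males. Differentiated libraries held 58 and 54.9 CPM, 15.4 and 17.1 CPM, and 49.6 and 13.2 CPM. WT females were thus highest, RlimKO-labelled females were low, and the male libraries lay far apart, with 1 near each level. The ratio was 113 (31.2 to 939) in WT females and 22.4 (7.44 to 110.4) in RlimKO-labelled females, and the log2 change was 5.16 ± 0.67 in WT males (adjusted p = 7.82e-06, 0.000623 and 1.47e-05). The upstream window of Fzd1 (chr5:4758217-4758466, minus strand) is shown because this receptor both rose from near 0 and differed between the female lines. RefSeq places this start upstream of the annotated span of the gene, chr5:4753839-4758035.
Fzd1: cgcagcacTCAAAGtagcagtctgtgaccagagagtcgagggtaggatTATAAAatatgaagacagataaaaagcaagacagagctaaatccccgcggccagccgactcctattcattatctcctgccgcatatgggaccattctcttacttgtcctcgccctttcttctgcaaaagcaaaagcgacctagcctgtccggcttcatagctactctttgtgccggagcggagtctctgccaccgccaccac
The TCF/LEF core word began 242 bases and the TATA box word 202 bases before the RefSeq start.

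Fzd2, a receptor that also pairs with Wnt5a, stood at 3.68 and 4.29 CPM, 9.92 and 6.39 CPM, and 7.43 and 9.04 CPM before differentiation in WT females, RlimKO-labelled females and WT males. After it the levels were 42.4 and 43.7 CPM, 61.1 and 56.6 CPM, and 82.9 and 62.3 CPM. Within each state WT females were lowest. Fzd2 rose by 3.42 ± 0.30 in WT females, 2.88 ± 0.27 in RlimKO-labelled females and 3.11 ± 0.24 in WT males on the log2 scale (adjusted p = 4.75e-07, 7.71e-07 and 8.75e-08). These were the smallest adjusted p-values of any receptor in each line.

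Fzd7, known as the leading Frizzled of stem cells, was well expressed before differentiation. Undifferentiated libraries held 44.1 and 48.6 CPM in WT females, 39.7 and 43.9 in RlimKO-labelled females and 72.8 and 74.5 in WT males, and differentiated ones 87.6 and 98.3, 81.8 and 60.2, and 94.6 and 133 CPM. The rises were small, at 1 ± 0.20, 0.74 ± 0.21 and 0.63 ± 0.19 on the log2 scale (adjusted p = 0.000965, 0.00956 and 0.0109). The RlimKO-labelled call was lost without either undifferentiated RlimKO-labelled library or differentiated RlimKO-labelled replicate 1 (adjusted p up to 0.117). In WT males it was lost without either undifferentiated WT male library (adjusted p up to 0.0607), when only the 2 male groups were fitted, and without the libraries of highest and lowest Rn45s share.

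Fzd4, the receptor of Norrin in vessels, was at 1.75 to 4.46 CPM in the 6 undifferentiated libraries. It reached 11.8 and 9.27 CPM for WT females, 23.4 and 22.2 CPM for RlimKO-labelled females and 19.7 and 15.1 CPM in WT males, with log2 rises of 2.07 ± 0.42, 3.35 ± 0.41 and 2.28 ± 0.34 (adjusted p = 0.000876, 1.19e-05 and 5.7e-05). Fzd8, a receptor of the beta-catenin branch, went from 1.17 and 3.41 CPM to 18.6 and 13.9 CPM in RlimKO-labelled females (log2 rise of 2.71 ± 0.56, adjusted p = 0.00112) and from 1.49 and 2.2 CPM to 13.1 and 5.8 CPM in WT males (2.25 ± 0.53, adjusted p = 0.00233). In WT females Fzd8 went from 2.63 and 1.91 CPM to 5.52 and 6.09 CPM, a log2 change of 1.35 that was not called (adjusted p = 0.0755). Differentiated libraries of both genes lay above undifferentiated ones in each line.

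Fzd6, which acts in planar polarity, rose in WT females, from 9.98 and 5.72 CPM to 21.1 and 22.3 CPM (log2 rise of 1.47 ± 0.33, adjusted p = 0.00187). RlimKO-labelled females held 12.3 and 10.7 CPM before and 10.6 and 10.7 CPM after, a log2 change of -0.09 (adjusted p = 0.836). WT males went from 4.46 and 5.29 CPM to 10.8 and 8.16 CPM, a log2 rise of 0.92 ± 0.33 (adjusted p = 0.0286). The male call was lost with DESeq2, when only the male groups were fitted, and without either undifferentiated WT male library or differentiated WT male replicate 1 (adjusted p up to 0.131). The difference between the female lines in this change was -1.56 and was not called (adjusted p = 0.245).

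Fzd5, a receptor known from yolk sac and eye development, fell in each line. Undifferentiated levels were 62.5 and 65.8 CPM for WT females, 77.1 and 40.5 CPM for RlimKO-labelled females and 73.5 and 59.3 CPM for WT males. Differentiated libraries held 10.7 and 10.1 CPM, 4.78 and 5.12 CPM, and 5.05 and 25.5 CPM. All were below every undifferentiated library, with male replicate 2 the closest. The log2 changes of Fzd5 were -2.62 ± 0.49 in WT females, -3.53 ± 0.57 in RlimKO-labelled females and -2.02 ± 0.44 in WT males (adjusted p = 0.000468, 0.000155 and 0.00139).

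Fzd10, a receptor of the early nervous system, also fell. It went from 8.93 and 10.5 CPM to 2.76 and 3.18 CPM in WT females, from 14.6 and 17.5 CPM to 1.06 and 2.93 CPM in RlimKO-labelled females and from 8.54 and 10.8 CPM to 1.61 and 1.72 CPM in WT males. The log2 changes were -1.71 ± 0.44, -2.83 ± 0.46 and -2.52 ± 0.43 (adjusted p = 0.00477, 0.000154 and 0.000174). Fzd9, another receptor of the nervous system, fell by the test in RlimKO-labelled females only, from 5.25 and 1.7 CPM to 0.531 and 0 CPM (ratio 19.2, 2.88 to 814, adjusted p = 0.0141). That call was lost without undifferentiated RlimKO-labelled replicate 1 or differentiated RlimKO-labelled replicate 2 (adjusted p up to 0.199). Fzd3, a planar polarity receptor of axons, ranged from 9.88 to 37.1 CPM over the 12 libraries and was not called in any line.

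None of the 4 Sfrp genes found by symbol rose, and none of the 3 Dkk genes tested fell, by the test in any line. Of all genes tested, 26.5%, 26.4% and 28.7% rose and 22.2%, 21.6% and 25.4% fell in WT females, RlimKO-labelled females and WT males. Dkk1 and Dkk2, near 0 in stem cells, had little room to fall and could pass the expression filter only through differentiated libraries. The 4 Sfrp genes summed to 116 to 150.2 CPM, 125 to 136 CPM and 62.6 to 72.4 CPM in undifferentiated WT females, RlimKO-labelled females and WT males. After differentiation the sums were 157 to 176 CPM in WT females, 26.6 to 30.2 CPM in RlimKO-labelled females and 22.7 to 95.5 CPM in WT males. The 4 Dkk genes summed to 2.1 to 7.27 CPM over all undifferentiated libraries and to 64.9 to 72.1, 53.1 to 57.1 and 58.6 to 92.3 CPM in the differentiated groups. Dkk sums of all differentiated libraries were thus far above those of all undifferentiated ones. Sfrp sums lay below the undifferentiated range of their line in both RlimKO-labelled libraries and in 1 of the 2 WT male libraries. Frzb, another name of which is Sfrp3, did not match the symbol rule and is named here for that reason. It stood at 0 to 0.371 CPM before and 5.31 to 28.2 CPM after differentiation and was called higher in each line. Near 0 in stem cells, Frzb could pass the expression filter only through differentiated libraries.

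Dkk2, an inhibitor that can also activate Lrp6 weakly, was silent or nearly so in stem cells. The 4 undifferentiated female libraries held 0 counts, and the male ones 0.371 and 0 CPM. Differentiated libraries held 36.9 and 45.6 CPM for WT females, 36.7 and 42.7 CPM for RlimKO-labelled females and 46.4 and 10.8 CPM in WT males, so that the second male library was low. Dkk2 was at least 54.2-fold higher in WT females and 55.2-fold in RlimKO-labelled females, with a ratio of 160.3 (28.6 to 6352) in WT males (adjusted p = 8.39e-05, 9.97e-05 and 6.45e-05). Its upstream window (chr3:132085042-132085291, plus strand, before the gene at chr3:132085292-132180304) is shown because Dkk2 had no count in undifferentiated females and rose in each line.
Dkk2: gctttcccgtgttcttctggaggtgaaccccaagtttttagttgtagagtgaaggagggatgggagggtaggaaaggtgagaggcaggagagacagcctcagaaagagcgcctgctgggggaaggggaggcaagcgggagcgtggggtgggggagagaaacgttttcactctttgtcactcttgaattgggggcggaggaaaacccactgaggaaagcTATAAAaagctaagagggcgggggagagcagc
The TATA box word began 32 bases before the start, and the TCF/LEF core was not in this window on either strand.

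Dkk1, the best-known Lrp5 and Lrp6 antagonist and itself a target of beta-catenin, was at 0 in 5 undifferentiated libraries and at 0.22 CPM in the sixth. Differentiated WT females held 5.92 and 8.21 CPM, RlimKO-labelled females 3.72 and 3.41 CPM, and WT males 13.3 and 17.1 CPM. The 3 lines did not overlap, with WT males highest and RlimKO-labelled females lowest. Dkk1 was at least 9.2-fold higher in WT females and 4.75-fold in RlimKO-labelled females, with a ratio of 115 (20.4 to 4555) in WT males (adjusted p = 0.000185, 0.00156 and 7.5e-06).

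Dkk3, the divergent member, started from a measurable level of 2.1 and 2.38 CPM for WT females, 4.09 and 5.11 CPM for RlimKO-labelled females and 3.71 and 6.39 CPM in WT males. It reached 22.1 and 18.3 CPM, 12.8 and 11 CPM, and 32.6 and 30.7 CPM. The order of the lines was the same as for Dkk1. The log2 rises were 3.15 ± 0.38, 1.32 ± 0.36 and 2.58 ± 0.29 (adjusted p = 1.11e-05, 0.0073 and 4.38e-06). The RlimKO-labelled call was lost without undifferentiated RlimKO-labelled replicate 1 (adjusted p = 0.0708).

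Sfrp4, a secreted inhibitor of stroma and bone, fell in each line, from 3.15 and 8.58 CPM to 0 and 0.265 CPM in WT females, from 4.09 and 5.97 CPM to 0 and 0.244 CPM in RlimKO-labelled females and from 5.94 and 5.73 CPM to 0 and 0.215 CPM in WT males. The ratios of undifferentiated to differentiated levels were 53 (8.65 to 2180.4), 31 (4.98 to 1280.2) and 39.7 (10.3 to 339), with adjusted p = 0.000662, 0.00275 and 0.000247. Sfrp5, an inhibitor of visceral endoderm, was at 0 to 4.73 CPM and was not called in any line.

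Sfrp1, a Wnt-binding inhibitor of many embryonic tissues, fell by the test in RlimKO-labelled females. Levels before differentiation were 129.7 and 97.2 CPM for WT females, 114 and 102 CPM for RlimKO-labelled females and 46.1 and 41.7 CPM for WT males. After differentiation it was at 158 and 142 CPM, 23.4 and 25.6 CPM, and 86.3 and 12.7 CPM. WT female libraries were thus high in both states, both differentiated RlimKO-labelled libraries were low, and the male libraries lay on either side of their starting level. The fall of 2.13 ± 0.57 on the log2 scale in RlimKO-labelled females passed the test (adjusted p = 0.00661), though not without differentiated RlimKO-labelled replicate 2 (adjusted p = 0.0534). The changes of 0.4 in WT females and 0.12 in WT males did not (adjusted p = 0.529 and 0.862). The difference between the female lines in the change was -2.53 and was not called (adjusted p = 0.24).

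Sfrp2, a close relative of Sfrp1 from mesenchyme and somites, was also lowest in differentiated RlimKO-labelled cells. Undifferentiated levels were 12.6 and 8.1 CPM for WT females, 16.3 and 17.5 CPM for RlimKO-labelled females and 20.1 and 15 CPM in WT males, and differentiated levels 14.4 and 13.2, 2.66 and 3.9, and 9.18 and 6.55 CPM. Sfrp2 fell by 2.29 ± 0.38 in RlimKO-labelled females (adjusted p = 0.000205) and by 1.16 ± 0.31 in WT males (adjusted p = 0.00531), with the male call lost without undifferentiated WT male replicate 1 (adjusted p = 0.0574). In WT females the log2 change was 0.43 (adjusted p = 0.306). The difference between the female lines was -2.72 ± 0.51 (adjusted p = 0.048), the only member called among the 3 tests of differences in change, where 0.203% of all genes were called (0.14% lower and 0.0624% higher). Leaving out 1 library at a time ended this call in 10 of 12 fits (adjusted p up to 0.235). In the other 2, without either differentiated WT male library, more members and more of all genes were called. The upstream window of Sfrp2 (chr3:83766071-83766320, plus strand, before the gene at chr3:83766321-83774316) is shown because this gene differed between the female lines.
Sfrp2: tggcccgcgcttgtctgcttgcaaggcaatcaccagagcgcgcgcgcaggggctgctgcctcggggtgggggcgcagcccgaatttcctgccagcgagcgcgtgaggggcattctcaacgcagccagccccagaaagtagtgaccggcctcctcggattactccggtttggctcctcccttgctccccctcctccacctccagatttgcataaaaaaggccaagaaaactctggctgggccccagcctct
Neither word was in this window on either strand.

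The tests of differences in change against WT males called no member. For WT females minus WT males the edgeR test gave 0 members called and 4 at an unadjusted p below 0.05, where 1.39% of all genes were called (0.882% higher and 0.507% lower). For RlimKO-labelled females minus WT males it gave 0 and 5, where 2.61% of all genes were called (1.51% higher and 1.09% lower). DESeq2 also called 0 in each. Without either differentiated WT male library both tests called members, and calls over all genes rose as well.

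Between the undifferentiated lines few members differed. RlimKO-labelled and WT females gave 0 calls by edgeR (1 at an unadjusted p below 0.05, and 0 by DESeq2), where 0.242% of all genes were called (0.101% higher and 0.14% lower). WT females differed from WT males in 1 member and RlimKO-labelled females from WT males in 3, where 6.63% (3.12% higher and 3.5% lower) and 10% (4.6% higher and 5.41% lower) of all genes were called, and both comparisons use the same male libraries. Wnt7b was the member called in each. It was at least 6.83-fold lower in WT females and at least 6.93-fold lower in RlimKO-labelled females than in WT males (adjusted p = 0.0238 and 0.0172). Fzd6 was 1.2 ± 0.36 higher and Fzd7 0.81 ± 0.21 lower on the log2 scale in RlimKO-labelled females than in WT males (adjusted p = 0.045 and 0.0237). For the WT female comparison the difference in Fzd7 was -0.67 (adjusted p = 0.0688). Without any of the 4 libraries compared, no member was called in either comparison (adjusted p of Wnt7b up to 0.149 and 0.151, of Fzd6 up to 0.178 and of Fzd7 up to 0.186). Without either differentiated WT male library, which leaves that group with 1 library assumed to vary like the others, more members were called in both comparisons. More of all genes were called in these fits too. Without differentiated WT female replicate 2 the RlimKO-labelled comparison gave 1 call. DESeq2 gave no adjusted p for Wnt7b in the WT female comparison and did not call Fzd6 in the RlimKO-labelled one (adjusted p = 0.108). Fzd6 was called in 4 of 12 fits with 1 library left out.

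Between the differentiated female lines 3 members were lower in RlimKO-labelled cells and none was higher, where 1.55% of all genes were lower, 1.05% higher and 2.59% differed in either direction. These were Sfrp1 at 24.5 against 149.7 CPM (log2 difference -2.6 ± 0.56, adjusted p = 0.022), Sfrp2 at 3.28 against 13.8 CPM (-2 ± 0.37, adjusted p = 0.00946) and Fzd1 at 16.2 against 56.4 CPM (-1.78 ± 0.44, adjusted p = 0.0459). The libraries of the 2 groups did not overlap for any of them, which adds nothing to the calls, since the 3 were picked by this same comparison. No member was called without any of the 4 libraries compared (adjusted p up to 0.266 for Sfrp1, 0.122 for Sfrp2 and 0.349 for Fzd1). Fzd1 was also lost without any undifferentiated library. With the 4 differentiated female libraries fitted alone, 10 members and 2154 of all genes were called, against 332 of all genes in the main fit. Without either differentiated WT male library more members and more of all genes were called. DESeq2 called 3. Marker genes also differed in this comparison. Of the 8 pluripotency markers 4 were lower in RlimKO-labelled cells, with sums of 179 to 186 CPM in WT females and 86.3 to 94.6 CPM in RlimKO-labelled females. Of the 10 visceral endoderm markers 3 of 9 tested were lower, with sums of 585 to 609 and 238 to 260.3 CPM. No marker of these 2 lists was at 0 in either group. The sums of the 8 fibroblast markers (7135 to 8285 and 11372 to 11654 CPM) and the 7 markers of endothelium and blood (135 to 136 and 204 to 207 CPM) did not overlap either, but edgeR called 0 of their genes (1 in each list at an unadjusted p below 0.05). Of the mesoderm and cardiac markers 6 were tested, with 1 higher and 2 lower in RlimKO-labelled cells. Hand1 was at 31.4 and 35.5 CPM in WT females and at 111 and 111 CPM in RlimKO-labelled females. Levels went the other way for Tnnt2 (18.7 and 13.2 against 2.66 and 3.41 CPM) and Myh6 (14.4 and 10.9 against 2.66 and 2.93 CPM). They did so too for Myl7 (5.72 and 5.03 against 0.531 and 0.732 CPM) and Tbx5 (3.35 and 3.71 against 1.06 and 1.22 CPM). Hand2 was at 107 and 100.4 against 98.8 and 88.5 CPM. Of 4 neural markers tested 1 was lower. Nes was at 111 and 122 CPM in WT females and at 39.3 and 40.5 CPM in RlimKO-labelled females, with Sox1 and Neurog2 at 0 in both groups. On differentiation Nes rose in each line, whereas the other 3 tested, Pax6, Sox1 and Tubb3, fell. The part of these cell types in the 3 differences was not tested.

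**Figure D2:**
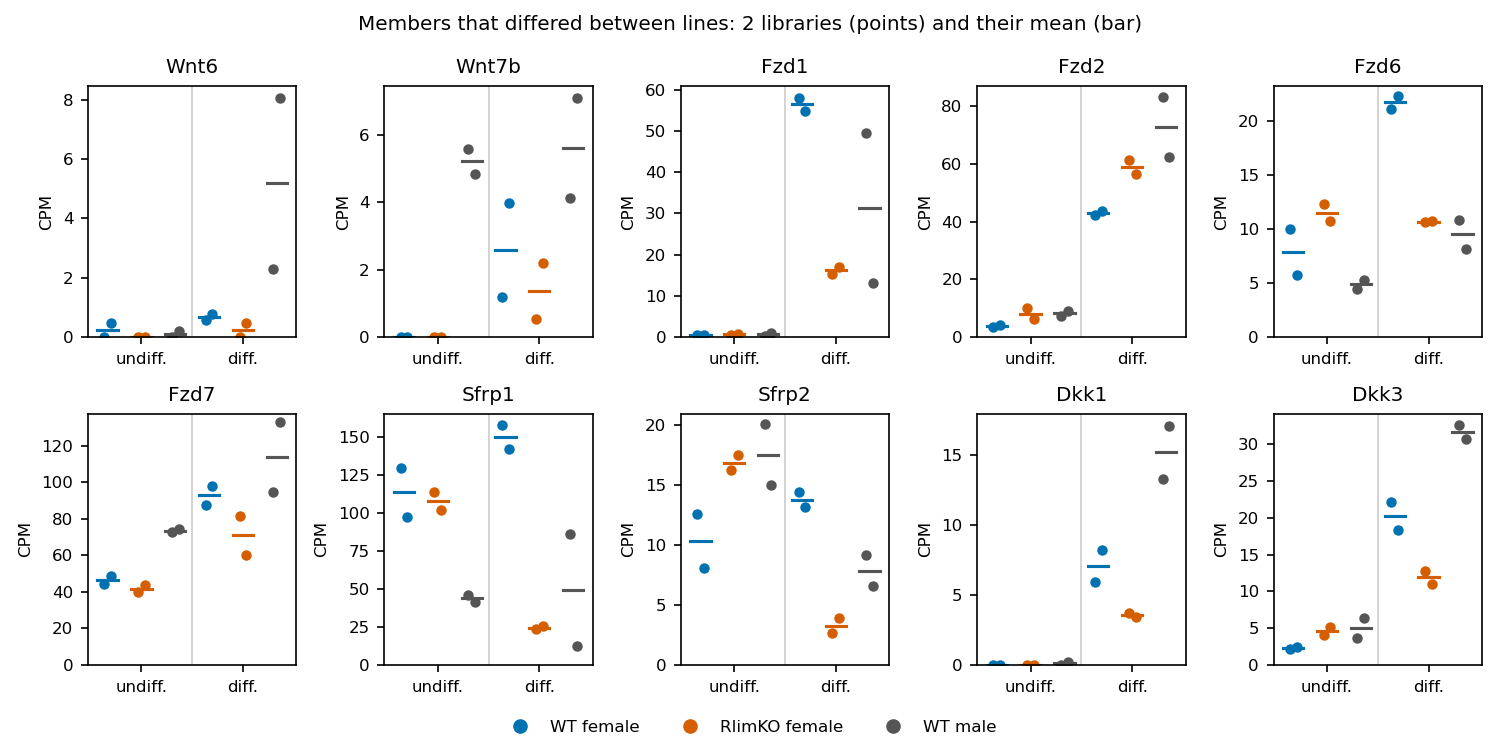
CPM (linear axes from 0) of the 10 members called between lines within a state, for 2 libraries a group (points) and their mean (bar), in undifferentiated cells on the left and differentiated cells on the right of each panel. Sfrp1, Sfrp2 and Fzd1 are low in both differentiated RlimKO-labelled libraries, Dkk1 and Dkk3 are highest in both differentiated WT male libraries, and Wnt7b is at 0 in the 4 undifferentiated female libraries.

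Against differentiated WT males, WT females differed in 3 members and RlimKO-labelled females in 4, where 8.97% (4.67% higher and 4.29% lower) and 11.6% (5.65% higher and 5.97% lower) of all genes were called, and the male libraries are again shared. In WT females Fzd6 was 1.21 ± 0.29 higher, Fzd2 0.75 ± 0.20 lower and Wnt6 2.91 ± 0.84 lower on the log2 scale (adjusted p = 0.018, 0.0319 and 0.0461). The call of Wnt6 held in 1 of 12 fits with 1 library left out (adjusted p up to 0.329), that of Fzd2 in 7 and that of Fzd6 in 10. DESeq2 called neither Fzd6 nor Fzd2 and gave no adjusted p for Wnt6. With only the 4 libraries compared fitted, edgeR called 0 members and 5 of all genes. All 3 calls were lost without either differentiated WT female library, and more members were called without either differentiated WT male library. Calls over all genes fell and rose in the same fits. There was 1 call without either differentiated RlimKO-labelled library or undifferentiated WT male replicate 1. In RlimKO-labelled females Dkk1 was 2.1 ± 0.45 lower, Dkk3 1.43 ± 0.28 lower and Fzd7 0.7 ± 0.19 lower than in WT males (adjusted p = 0.0113, 0.00476 and 0.0287), and Wnt6 was 18.6-fold lower (5 to 156, adjusted p = 0.0263). No member was called without differentiated RlimKO-labelled replicate 2 (adjusted p up to 0.16 for Dkk1, 0.113 for Dkk3, 0.341 for Fzd7 and 0.171 for Wnt6 over all left-out libraries) or when only the 4 libraries were fitted. Without differentiated RlimKO-labelled replicate 1 or WT female replicate 1 fewer members were called, and without either differentiated WT male library more were. Calls over all genes moved the same way in these fits.

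The differentiated WT male libraries differed from each other in the members as well as in all genes. Of 22 members with a mean of at least 5 CPM in that group, 10 differed over 2-fold between its libraries, against 0 of 17 in differentiated WT females, 0 of 15 in differentiated RlimKO-labelled females and at most 1 in an undifferentiated group. The share of all genes that differed over 2-fold in this pair was not computed, so the count is not shown to be particular to the members. Replicate 1 was higher for Sfrp1 (6.81-fold), Dkk2 (4.27-fold), Wnt2 (4.06-fold), Fzd1 (3.75-fold), Fzd3 and Fzd8. Replicate 2 was higher for Fzd5 (5.04-fold), Wnt3, Wnt6 and Wnt9a. Among the other 12, Dkk3, Wnt11, Dkk1, Wnt4 and Sfrp2 differed by at most 1.4-fold. The fibroblast markers summed to 9345 CPM in replicate 1 and 2997 CPM in replicate 2. The gaps (replicate 1 first) were widest for Lum (93.4 and 3.22 CPM), Dcn (42 and 2.04 CPM) and Col3a1 (2776 and 247 CPM). They were narrower for Col1a2 (1910.5 and 411 CPM), Col1a1 (2935 and 1258 CPM), Twist1 (6.89 and 3.87 CPM) and Postn (1581 and 1071 CPM). Thy1 went the other way, at 0 and 0.537 CPM. The 7 markers of endothelium and blood summed to 479.6 CPM in replicate 1 and 65.6 CPM in replicate 2. Sums were higher in replicate 2 for the 8 pluripotency markers, at 57.6 CPM in replicate 1 and 169 CPM in replicate 2 (Tfcp2l1 at 18.4 and 80.2 CPM), and for the 10 visceral endoderm markers, at 566 and 787 CPM. Among the visceral endoderm markers, Gata6 (62.2 and 25 CPM) and Cubn (15.6 and 7.41 CPM) were higher in replicate 1. The part of these cell types in the levels of the Wnt genes was not tested.

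**Figure D3:**
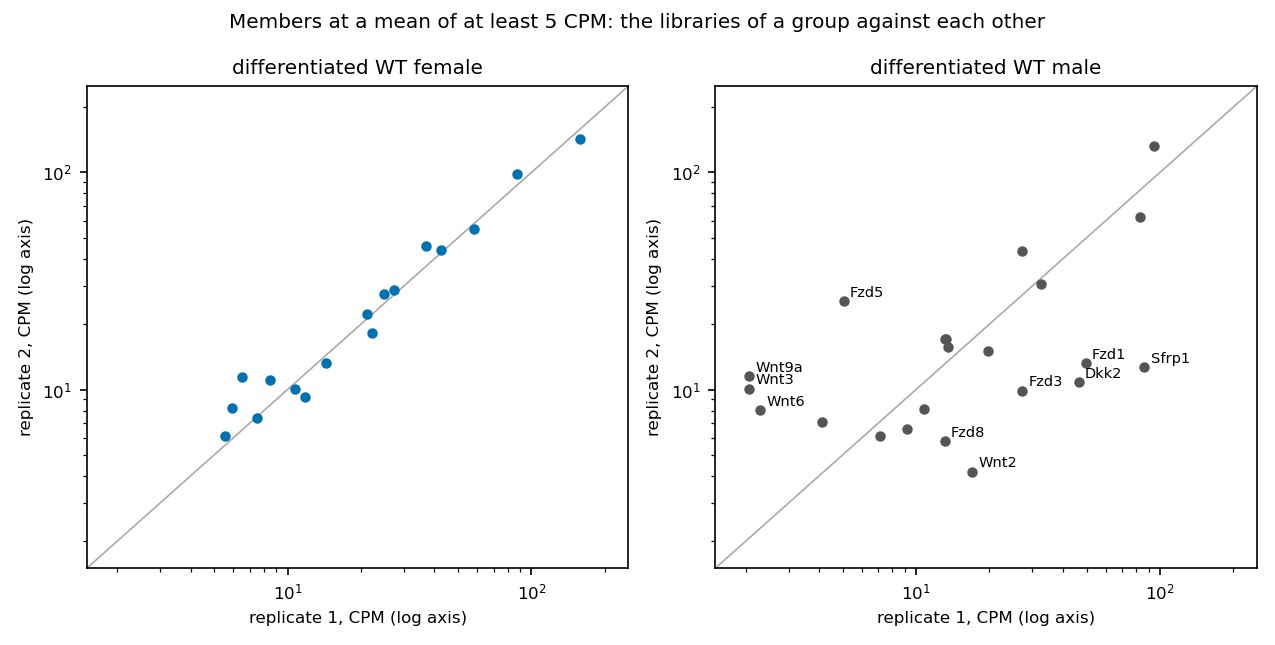
CPM of replicate 1 (x axis) and replicate 2 (y axis) on log axes for members with a mean of at least 5 CPM, in differentiated WT females (17 members, left) and differentiated WT males (22 members, right), with the line of equal levels. Names mark the 10 members that differ over 2-fold, all in the male pair, with Sfrp1 the farthest from the line at 6.81-fold.

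Per length, a few members carried most of the signal. Levels here are CPM per kilobase of merged exon, which allows genes to be set beside each other. In undifferentiated females Sfrp1 led, at 26 (libraries 22.2 to 29.7) in WT and 24.7 (23.3 to 26.2) in RlimKO-labelled cells, followed by Fzd7 at 10.2 and 9.22 and Fzd5 at 9.27 and 8.5. The Fzd7 and Fzd5 libraries overlapped in RlimKO-labelled cells. In undifferentiated WT males Fzd7 led at 16.3 (16.1 to 16.4), above Sfrp1 at 10 (9.53 to 10.5) and Fzd5 at 9.61 (8.58 to 10.6), which overlapped. Differentiated WT females were led by Sfrp1 at 34.2, then Fzd7 at 20.5, Fzd1 at 13.4, Fzd2 at 11.8 and Dkk2 at 11.1, with the libraries of Fzd2 and Dkk2 overlapping. Differentiated RlimKO-labelled females were led by Fzd2 at 16.1 and Fzd7 at 15.7, which overlapped, then Dkk2 at 10.7, with Sfrp1 at 5.6. In differentiated WT males Fzd7 at 25.1 and Fzd2 at 19.8 overlapped, and Sfrp1 spanned 2.9 to 19.7. No group mean of a ligand exceeded 5.25, that of Wnt2 in differentiated RlimKO-labelled cells, though 1 differentiated WT male library held 7.53 of Wnt2. Exon length is an approximate scale, since cDNA was made from a 3′ primer and coverage along each gene was not examined.

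**Figure D4:**
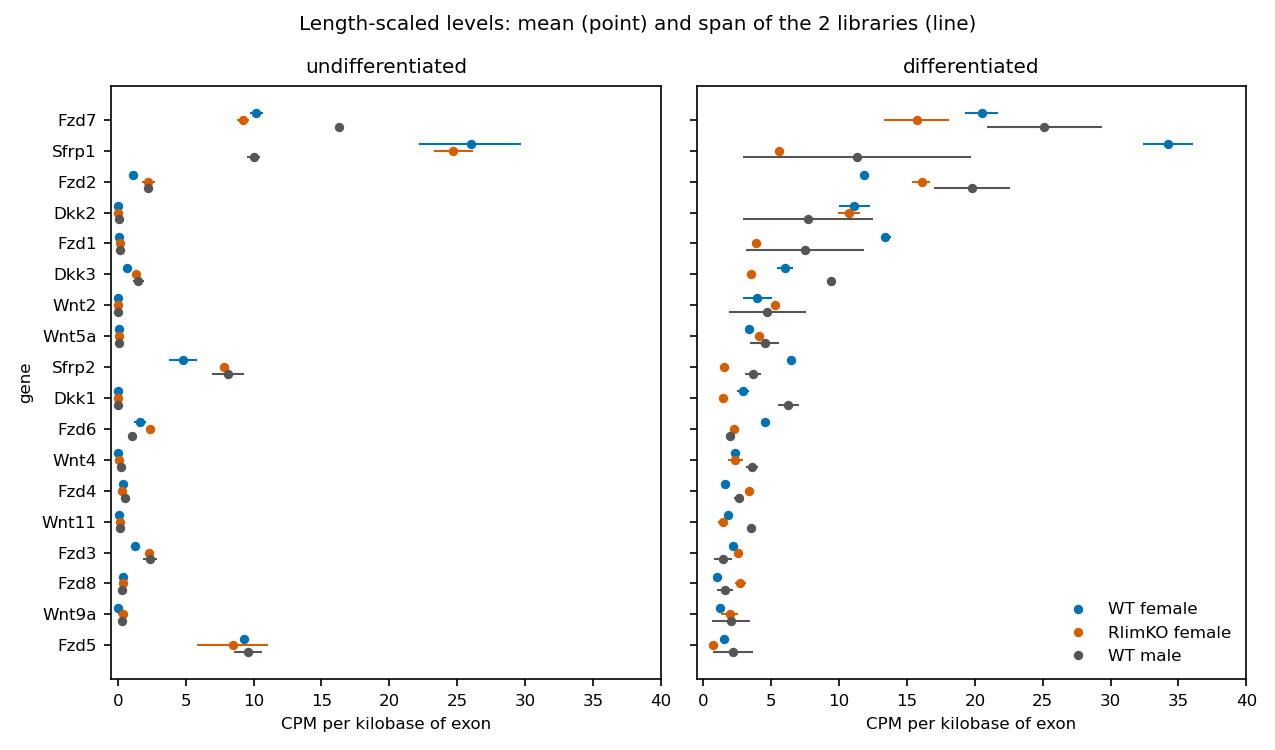
CPM per kilobase of exon (linear axis) for the 18 members with the highest mean over the differentiated groups, as the mean (point) and the span of 2 libraries (line) in each group, undifferentiated on the left and differentiated on the right. Sfrp1, Fzd7 and Fzd5 stand out before differentiation, whereas Fzd7, Fzd2, Dkk2 and Fzd1 join or replace them afterwards and Sfrp1 is highest in WT females at 34.2.

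The rest of the pathway was described from 4 lists. Of all genes tested, 26.5% rose and 22.2% fell in WT females, 26.4% and 21.6% in RlimKO-labelled females, and 28.7% and 25.4% in WT males. Of 24 other receptors, co-receptors and extracellular regulators, 15 were tested; 11 rose and 1 fell in each female line, and 13 rose and none fell in WT males. Their median log2 change was 1.64, 2.51 and 1.68 in WT females, RlimKO-labelled females and WT males, beside all-gene medians of 0.09, 0.1 and 0.05. Wls, the carrier that takes Wnt proteins to the cell surface, stood at 1.91 to 4.85 CPM in undifferentiated libraries and at 161 and 161 CPM, 190.2 and 204 CPM, and 131 and 122 CPM in differentiated ones. It rose by 5.73 ± 0.25, 6.31 ± 0.26 and 4.69 ± 0.21 on the log2 scale (adjusted p = 1.15e-09, 8.08e-10 and 6.6e-10). Gpc3, a membrane proteoglycan that binds Wnts, rose by 2.29 ± 0.26, 2.97 ± 0.27 and 4.01 ± 0.28 (adjusted p = 6.11e-06, 7.84e-07 and 2.96e-08). The related Gpc4 was at 1.75 and 1.28 CPM in undifferentiated RlimKO-labelled females, below 12.6 and 6.67 CPM in WT females and 12.6 and 11.2 CPM in WT males, and at 28.4 to 65.8 CPM in all differentiated libraries.

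Of 21 intracellular components, all tested, 9 rose and 1 fell in WT females, and 9 rose and 2 fell in RlimKO-labelled females. In WT males 8 rose and 2 fell. The median log2 changes were 0.45, 0.61 and 0.24. These counts were near the share of all genes called in either direction, which was 48.7%, 48% and 54% in the same order. Bcl9l, a co-activator of beta-catenin, rose by 2.6 ± 0.24, 3.64 ± 0.25 and 3.42 ± 0.21 (adjusted p = 7.41e-07, 4.41e-08 and 1.22e-08). The DNA-binding partners of beta-catenin moved in different directions. Tcf7 fell, with log2 changes of -1.96 ± 0.26, -1.63 ± 0.27 and -1.05 ± 0.22 (adjusted p = 2.83e-05, 0.000212 and 0.0011), while Tcf7l2 rose by 2.59 ± 0.33, 2.47 ± 0.33 and 1.59 ± 0.27 (adjusted p = 1.84e-05, 2.75e-05 and 0.000173). Lef1 was at 2.1 to 4.67 CPM in undifferentiated females and 24.5 and 31.1 CPM in undifferentiated WT males, and at 6.38 to 17.6 CPM in all differentiated libraries.

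Of 16 transcriptional targets of beta-catenin, 10 were tested. In WT females 5 rose and 2 fell, and 6 rose and 2 fell in each other line. Of all genes, 48.7% were called in either direction in WT females, 48% in RlimKO-labelled females and 54% in WT males. Members at or near 0 in stem cells, such as Msx2, could pass the expression filter only through differentiated libraries. The list summed to 142 to 163 CPM over the undifferentiated libraries and to 136 to 170 CPM over the differentiated ones. These sums hide opposite changes of single genes. Ccnd1, named here for its part in the sum, held the largest share before differentiation. It fell in each line, from 81.3 to 103 CPM over the undifferentiated libraries to 15.4 to 54.5 CPM over the differentiated ones. The WT female call of Ccnd1 was lost without differentiated WT female replicate 2. Nkd1, a feedback inhibitor acting on Dishevelled, rose by 3.83 ± 0.45, 5.88 ± 0.53 and 3.35 ± 0.37 (adjusted p = 8.15e-06, 5.95e-07 and 3.64e-06). Notum, an enzyme that removes the lipid from Wnts, fell, with log2 changes of -5.21 ± 0.47, -4.71 ± 0.46 and -2.44 ± 0.38 (adjusted p = 6.47e-07, 1.41e-06 and 8.68e-05). Both are inhibitors of the pathway, and they moved in opposite directions. Axin2, the target most used as a readout and named here after its values were seen, was at 4.67 to 15.6 CPM before and 7.95 to 19.4 CPM after differentiation and was not called in any line.

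Of 9 planar polarity genes, all tested, 3 rose and 4 fell in each female line, and 3 rose and 2 fell in WT males. The median log2 changes were -0.56, -0.87 and -0.15. Beside these counts, 48.7%, 48% and 54% of all genes were called in either direction, and the WT male count was near its share. Prickle1, a cytoplasmic component, rose by 4.41 ± 0.34, 4.79 ± 0.36 and 4.58 ± 0.30 (adjusted p = 1.49e-07, 9.92e-08 and 1.79e-08), and the actin regulator Daam1 by 1.44 ± 0.18, 1.16 ± 0.17 and 1.87 ± 0.17 (adjusted p = 1.21e-05, 7.77e-05 and 5.31e-07). Celsr2, a cadherin of the same system, fell, with log2 changes of -1.38 ± 0.38, -3.33 ± 0.49 and -1.09 ± 0.32 (adjusted p = 0.00819, 6.26e-05 and 0.0112). The call of Celsr2 was lost without differentiated WT female replicate 2 in WT females (adjusted p = 0.0554) and without undifferentiated WT male replicate 1 in WT males (adjusted p = 0.145).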

How the data were processed

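RNA of 12 mouse ESC libraries was reverse-transcribed from a 3′ primer with template switching, amplified and tagmented, per the labels' protocols. Molecular identifiers are not described there. The submitters' processing notes name bcl2fastq 2.16.0.10, TopHat2 2.0.12, HTSeq 0.6.1p1, edgeR 3.10.0 and mm10. The sources used here give neither annotation nor strand setting, so reads of overlapping genes on opposite strands cannot be told apart. The authors deposited raw read counts per gene symbol. Rows naming no gene were set aside: 45.4% to 53.3% of reads fell in no feature and 0.241% to 0.926% were ambiguous.

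Counts were fitted here in R 4.3.3 with edgeR 4.0.16 (1 mean for each of 6 groups, TMM scaling, default filter, quasi-likelihood F test, Benjamini-Hochberg adjustment over 12814 genes). The 12 comparisons were the change on differentiation in each line, the pairs of lines within each state, and the differences between lines in the change. Scripts were tested on simulated data. A fold against a group at 0 uses 3 counts over the group as its floor, and 1 to 3 counts give a ratio with a 95% counting interval. Both cover counting error only, since amplified reads are not independent molecules. Gene positions and exon lengths are from GENCODE on GRCm38. Alternatives were RLE scaling, other filters, a replicate block, DESeq2 1.42.0, only the groups compared, omission of Rn45s and Lars2, and leaving out each library. All members with at least 10 counts in total are described, and up to 4 called genes with the smallest p from each other list and comparison may be named. The members and lists were chosen with earlier results of these data known. The neural marker list is not reported in full here.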

Additional observations from a re-analysis of the deposited data

Results flagged for a closer look

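The change of Sfrp2 on differentiation differed between the female lines by -2.72 on the log2 scale (RlimKO-labelled minus WT, adjusted p = 0.048 by edgeR), a call lost in 10 of 12 fits with 1 library left out. Among the other pathway genes, 6 tests of a difference between lines in the change on differentiation passed the same threshold. The change of Gpc4 was larger in RlimKO-labelled females than in WT females by 2.91 (adjusted p = 0.0428, called in 3 of 12 left-out fits) and than in WT males by 2.17 (adjusted p = 0.0397, called in 4 of 12). Porcn, the enzyme that adds the lipid to Wnts, changed by -2.5 relative to WT males in RlimKO-labelled females (adjusted p = 0.0439, called in 2 of 12), with levels of 11.1 and 13.2 CPM before and 2.13 and 1.46 CPM after differentiation against 8.17 and 8.6, and 4.82 and 8.27 CPM in WT males. Wls changed by 1.61 more in RlimKO-labelled females than in WT males (adjusted p = 0.048, called in 2 of 12). In WT females relative to WT males, Gpc3 changed by -1.73 (adjusted p = 0.033, called in 3 of 12) and Lef1 by 2.56 (adjusted p = 0.0193, called in 6 of 12). The comparisons with WT males share the male libraries.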

How the results depend on the processing

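The counts of members that changed on differentiation stayed within 1.5 times the reported ones in all settings tried: they spanned 15 to 21 in WT females, 16 to 22 in RlimKO-labelled females and 15 to 23 in WT males when 1 library was left out. Of 56 such calls, 43 held in all 12 of these fits, against 0 of 15 calls between lines or of differences in change. The leave-one-out ranges of the other counts were 0 to 0 for RlimKO-labelled against WT females, 0 to 5 for WT females against males and 0 to 4 for RlimKO-labelled females against males before differentiation. After it they were 0 to 10, 0 to 17 and 0 to 15, and for the differences in change 0 to 3, 0 to 5 and 0 to 2. Undifferentiated WT females against males gave 3 members with no filter, 0 with the stricter filter, 0 with DESeq2, 4 with only the groups compared and 5 without the Rn45s extremes (the libraries with its highest and lowest share, which are differentiated; this setting was chosen after seeing the data). Differentiated RlimKO-labelled against WT females gave 5 with no filter, 10 with only the groups compared and 7 without the Rn45s extremes. Differentiated WT females against males gave 6 with no filter, 0 with DESeq2, 0 with only the groups compared and 7 without the Rn45s extremes. Differentiated RlimKO-labelled females against males gave 12 with no filter and 0 with only the groups compared. Over all genes those 2 fits called 2114 and 10, against 1489 in the main fit. The difference between the female lines in change gave 0 with RLE scaling, 2 with no filter, 3 with only the groups compared and 2 without the Rn45s extremes. WT females minus males gave 1 with no filter and 1 without the Rn45s extremes, and RlimKO-labelled females minus males 2 and 2. Of 1391 values of single members under an alternative, 1258 kept direction and call, 133 kept direction and lost the call, and 0 reversed. Of 2982 values of the other pathway genes 1 reversed: Ror1 in WT males stood at a log2 change of -0.09 (adjusted p = 0.911 by edgeR) without differentiated WT male replicate 1 and at 3.42 without replicate 2, where the levels were 24.8 and 2.15 CPM. With a replicate block the counts on differentiation were 17, 19 and 20 as without it. Between lines the replicate block moved 2 counts, from 3 to 2 (undifferentiated RlimKO-labelled females against males, losing Fzd6) and from 3 to 4 (differentiated WT females against males). Replicate numbers were not taken to pair samples, since correlations of the deviations of same-numbered libraries over 15 pairs of groups ran from -0.06 to 0.12, with 1 over 0.1. A lone library left in a group was assumed to vary like the others. In every comparison calls over all genes also fell when a library compared was left out, unless it was a differentiated WT male one. They rose without either of those male libraries, and with no filter. The share of calls over all genes that held in every fit was not computed, so the members' share cannot be set beside it. Depth limits the scarce ligands, as 3 counts equal 0.322 to 1.75 CPM.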
